A study of Canis lupus familiaris with 2 samples.

Results

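The insulin-like growth factor (IGF) family was examined here as 10 genes, namely the ligands IGF1 and IGF2, the receptors IGF1R and IGF2R, and the binding proteins IGFBP2 to IGFBP7. They were found by gene symbol in the annotation of a canine expression array, where 22 of the 29254 probe sets with a single gene symbol carried a member's symbol, so that 10 of 15115 named genes belong to the family. The samples were J3T-1 and J3T-2, subclones that come from the same parental canine glioma cell and that differ in invasion and angiogenesis. Both were cultured under the same serum-containing conditions, without a treatment named in the labels, and RNA of each was put on 1 array. There are therefore no replicates, no test between the subclones and no SD between samples. Each value below is a single MAS5 signal, a brightness per probe set on a linear scale as deposited.

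IGF1 and IGF2 are secreted peptides that signal through IGF1R, a receptor tyrosine kinase that feeds the PI3K-AKT and RAS-MAPK relays and supports growth and survival in many tumours, gliomas included. IGF2R, also known as the cation-independent mannose 6-phosphate receptor, has no kinase and carries IGF2 and lysosomal enzymes to the lysosome. The binding proteins hold IGFs in the extracellular fluid, where they can limit or prolong the action of the ligands, and several of them also bind matrix or cell surface proteins. The comparison asks which of these transcripts differ between 2 subclones of similar genetic background.

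Both receptors and the binding proteins IGFBP4 to IGFBP7 exceeded the floor in both subclones and IGFBP2 only in J3T-2, while both ligands and IGFBP3 stayed under it in both. The floor of an array was its median signal over the 42924 probe sets that are not controls, 19.0 for J3T-1 and 22.0 for J3T-2, and signals under it were set to it. Of the 22 member probe sets, 14 exceeded both floors, 1 exceeded it only in J3T-2 and 7 exceeded neither. Of the 15 that exceeded a floor, 2 were past 2-fold towards J3T-2, beside 7.77% of all such probe sets, and 4 towards J3T-1, beside 3.3%. In genes, 7 of the 10 members were measured on at least 1 array, each represented by its brightest probe set. IGFBP2 was at least 3.37-fold higher in J3T-2, IGF2R (2.16-fold) and IGFBP6 (2.06-fold) were higher in J3T-1, and IGF1R, IGFBP4, IGFBP5 and IGFBP7 lay within 2-fold.

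In genes, 1 of 7 measured members was past 2-fold towards J3T-2, as were 7.37% of all 9468 measured genes, and 2 of 7 were past it towards J3T-1, as were 3.5% of measured genes. The median log2 ratio of J3T-2 over J3T-1 was -0.46 over the 7 members and 0.17 over all measured genes. That second value shows that the arrays as a whole were shifted towards J3T-2. With ratios taken relative to it, IGFBP5 also passed 2-fold (2.01-fold), which made 3 of 7 members higher in J3T-1, beside 4.65% of all genes on that scale, and 1 of 7 higher in J3T-2, beside 5.04%. With so few members, and with 4 of them between 1.79-fold and 2.16-fold, these counts are descriptions of 2 arrays. The family median depended on the floor and was 0.48 over 9 genes with a floor at the 25th percentile of each array. Against a floor at the 75th percentile, IGF2R, IGFBP2 and IGFBP5 had no fold, and with no floor and a pseudocount of 16 neither IGF2R (log2 ratio -0.93) nor IGFBP6 (-0.99) reached 2-fold.

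**Figure D1:**
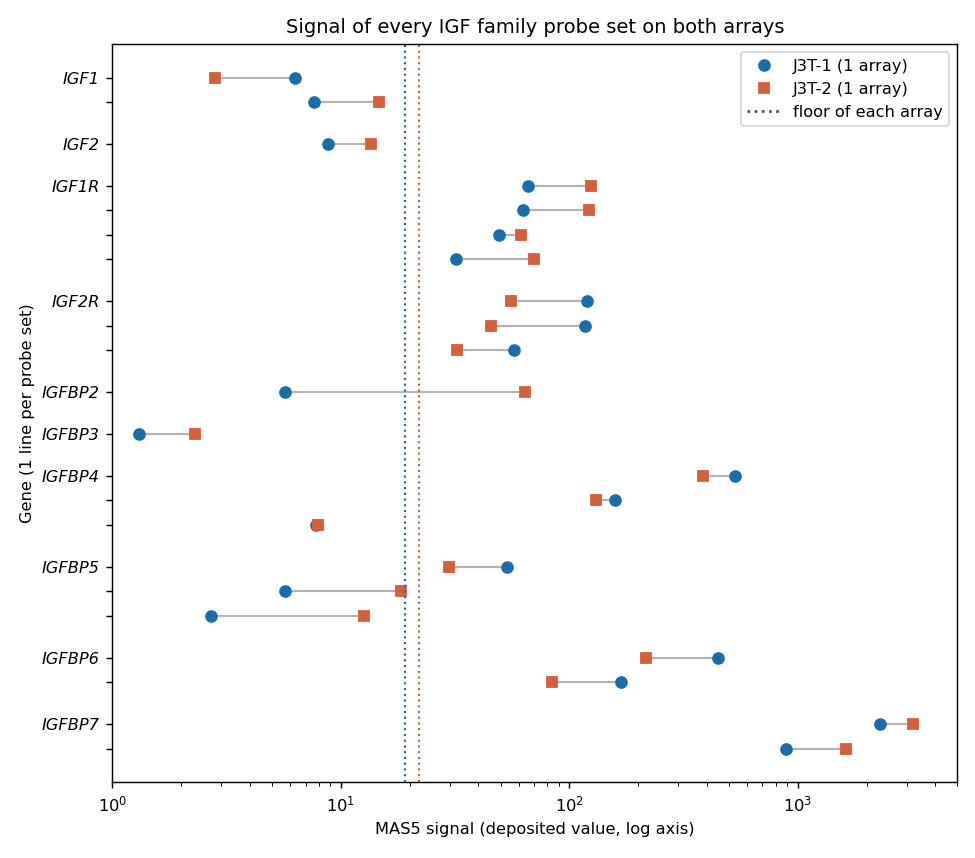
MAS5 signal (log axis) of each of the 22 member probe sets, 1 line per probe set, with J3T-1 as circles and J3T-2 as squares, 1 array each, and the 2 floors dotted. All IGF1, IGF2 and IGFBP3 points lie under the floors, IGF1R squares lie right of their circles, and IGF2R and IGFBP6 squares lie left of theirs.

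No ligand probe set exceeded the floor. IGF1, the main mediator of growth hormone action, had 2 probe sets. The first read 6.3 in J3T-1 against 2.8 in J3T-2, and the second read 7.6 and 14.7. The probe sets thus pointed in opposite directions while both were under the floor, so no order between the subclones is drawn from them. IGF2, the fetal growth factor expressed from an imprinted locus, had a single probe set, which read 8.8 in J3T-1 against 13.6 in J3T-2, also under the floor on both arrays. No detection calls were used here, so a signal under the floor is stated as such and not as absence of the transcript.

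The receptors differed in opposite directions. All 4 probe sets of IGF1R were brighter in J3T-2, and all 3 of IGF2R were brighter in J3T-1. The brightest IGF1R probe set read 65.8 in J3T-1 against 124.0 in J3T-2, and the others read 62.6 and 122.2, 49.4 and 61.6, and 31.9 and 69.7 in that order of subclones. The brightest, which represents the gene, gave 1.88-fold, and the 4 ranged from 1.25-fold to 2.19-fold. The mean log2 ratio of IGF1R was 0.83 ± 0.35 (SD over n = 4 probe sets, a technical spread within the same arrays). Of the 4, only the dimmest in J3T-1 passed 2-fold, and the representative probe set was 1.68-fold apart once the shift of all genes was taken off. Without _x_at and _s_at probe sets, which can match several transcripts, the log2 ratio of IGF1R was 0.32 by the brighter probe set left. The dimmer one left gave 1.13, the largest of the 4.

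IGF2R clears IGF2 from the cell surface. Its probe sets read 119.5 in J3T-1 against 55.3 in J3T-2, 117.6 against 45.3, and 57.4 against 32.1. All were brighter in J3T-1, by 2.16-fold, 2.6-fold and 1.79-fold, with a mean log2 ratio of -1.11 ± 0.27 (SD over n = 3 probe sets). Among all measured genes, 3.0% had a lower log2 ratio than IGF2R and 91.0% a lower one than IGF1R. The log2 ratios of the receptors were 1.94 apart by their means over probe sets and 1.16 apart between their nearest probe sets. A single factor that scales a whole array cancels in this gap. Scaling that varies with brightness, the floor and the choice of probe sets do not cancel. With no floor and a pseudocount of 16, the ratios were 0.78 for IGF1R and -0.93 for IGF2R. For scale, the log2 ratios of probe sets that share a gene had an SD of 0.26, as the root mean square across 4580 genes.

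**Figure D2:**
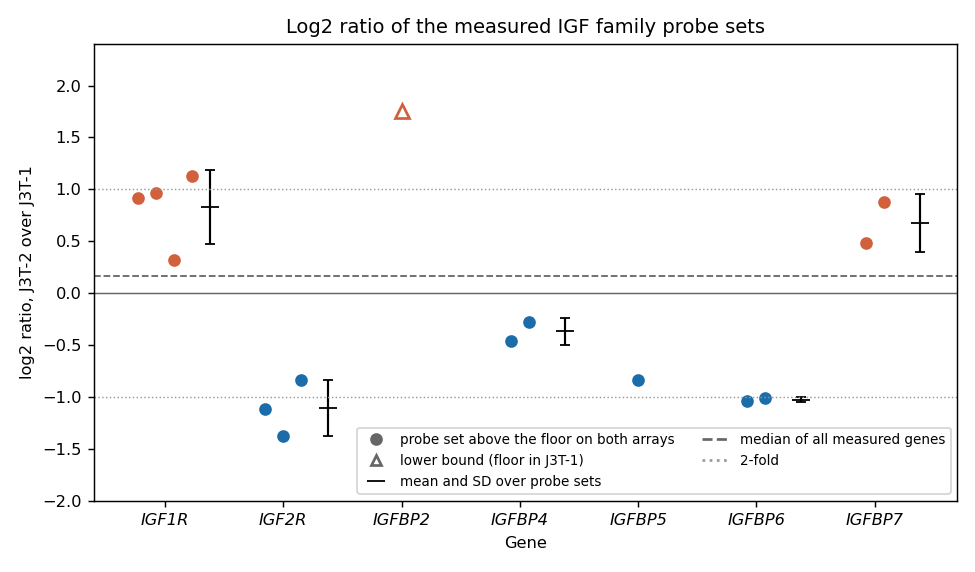
Log2 ratio of J3T-2 over J3T-1 for each measured member probe set (points), with the mean and SD over a gene's probe sets (bars), the median of all measured genes (dashed) and the 2-fold lines (dotted). IGF1R and IGFBP7 lie above 0, the lower bound of IGFBP2 lies at 1.75, and IGF2R, IGFBP4, IGFBP5 and IGFBP6 lie below 0.

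Binding proteins went both ways. IGFBP2, which has an RGD sequence that binds integrins and is known for its high levels in high-grade glioma, had the largest difference in the family. Its single probe set read 5.7 in J3T-1, under the floor, against 64.1 in J3T-2. The fold of at least 3.37 is a lower bound against the floor of 19.0, and 98.0% of measured genes had a lower log2 ratio. Against a floor at the 25th percentile, the J3T-1 signal counted as measured and the log2 ratio was 3.49, where the main setting gave 1.75 as a bound. With a single probe set, the technical spread of IGFBP2 could not be measured. IGFBP3, the main carrier of IGFs in blood, had 1 probe set, which read 1.3 in J3T-1 against 2.3 in J3T-2, under the floor on both arrays. The annotation's gene ID for it was the only one of 10 that the RefSeq table did not pair with the member's symbol, so these signals may not be those of IGFBP3.

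IGFBP6, which prefers IGF2 over IGF1, was brighter in J3T-1 by both of its probe sets. One read 446.3 in J3T-1 against 216.6 in J3T-2, and the other read 168.9 against 83.8. Their folds of 2.06 and 2.02 were the closest pair in the family, with a mean log2 ratio of -1.03 ± 0.02 (SD over n = 2 probe sets). IGFBP4, an inhibitory binding protein that the protease PAPPA cleaves, was also brighter in J3T-1, but by less. Its probe sets read 529.0 in J3T-1 against 385.2 in J3T-2 (1.37-fold), 158.8 against 130.9 (1.21-fold), and 7.8 against 7.9, under the floor on both arrays. The 2 IGFBP4 probe sets above the floor agreed in direction.

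IGFBP5, a binding protein that attaches to extracellular matrix, rested on a single probe set. It read 53.2 in J3T-1 against 29.7 in J3T-2, or 1.79-fold higher in J3T-1. The other 2 read 5.7 against 18.3 and 2.7 against 12.6, under the floor on both arrays, so that their order was not used. The direction given for IGFBP5 is thus that of 1 of its 3 probe sets. IGFBP2 and IGFBP5 are neighbours in the dog genome, with 0 protein-coding genes between them in the RefSeq annotation of UU_Cfam_GSD_1.0, and their measured log2 ratios had opposite signs (1.75 as a bound, and -0.84).

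IGFBP7, a secreted protein of low affinity for IGFs that also binds insulin and is found in vascular basement membranes, was brighter in J3T-2. The brighter probe set read 2301.3 in J3T-1 against 3207.2 in J3T-2 (1.39-fold), and the other read 887.2 against 1626.5 (1.83-fold). The mean log2 ratio was 0.68 ± 0.28 (SD over n = 2 probe sets). Relative to the median of all genes the representative probe set was at 0.31, and 74.0% of genes had a lower ratio, so IGFBP7 lay well inside the bulk of genes.

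**Figure D3:**
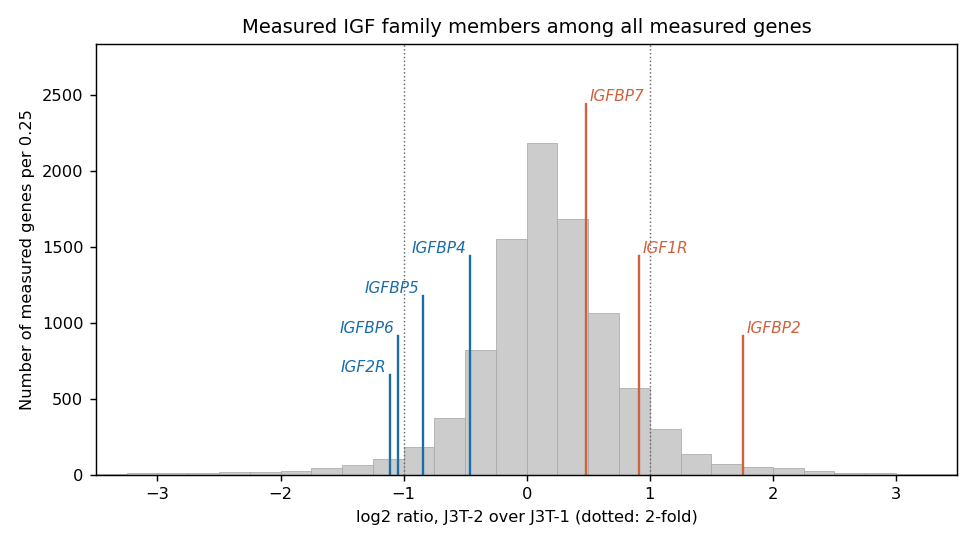
Histogram of the log2 ratio of J3T-2 over J3T-1 for the 9468 measured genes, in bins of 0.25, with the 7 measured members marked (line height has no meaning) and 2-fold dotted. IGF2R and IGFBP6 lie beyond the left 2-fold line and IGFBP2 beyond the right one.

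The genes around the family were taken as 7 lists holding 98 genes, of which 61 were measured. Of these, 3 were past 2-fold towards J3T-2, beside 7.37% of all measured genes, and 5 towards J3T-1, beside 3.5%. The counts were 3 and 8 when centred on the median of all genes, beside 5.04% and 4.65% of all measured genes on that scale. Against a floor at the 25th percentile they were 12 and 9 of 86 measured genes. The share of all genes at that floor was not worked out, so those counts cannot be set against it. The lists that relay the signal inside the cell were close to the median of all genes. Insulin receptors and adaptors had 11 of 18 genes measured, 0 past 2-fold in either direction and a median log2 ratio of 0.38. Both probe sets of the insulin receptor gene INSR were under the floor on both arrays (1.0 and 0.7, and 5.8 and 8.5), as were those of the docking protein gene IRS1. By the representative probe sets, the largest log2 ratios in that list were 0.79 for GRB2 and 0.69 for the docking protein gene IRS2. GRB2, the adaptor that links receptors to RAS, read 172.6 in J3T-1 against 298.5 in J3T-2, and IRS2 read 32.0 and 51.5. The adaptor gene GAB1 had 0.61 by its brightest probe set (64.8 and 99.1). Its other probe set above both floors passed 2-fold towards J3T-2, at 1.11 (30.3 and 65.4).

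The PI3K-AKT-mTOR relay had 25 of 33 genes measured and a median of 0.22. Of these, 1 was past 2-fold towards J3T-2 (7.37% of all measured genes) and 0 towards J3T-1 (3.5%). The gene towards J3T-2 was FOXO3, a transcription factor that AKT restrains, with signals of 45.0 in J3T-1 against 160.6 in J3T-2 (3.57-fold) by its only probe set. Relative to the median of all genes, PDPK1 and EIF4EBP1 passed 2-fold towards J3T-1, beside 4.65% of all measured genes on that scale. PDPK1, the kinase that activates AKT, read 55.6 and 28.7 (1.94-fold on the deposited scale). EIF4EBP1, a translation repressor that mTOR inactivates, read 297.7 and 159.3 (1.87-fold). Its other probe set read 290.4 and 129.8, which is 2.24-fold higher in J3T-1 on the deposited scale.

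Genes that release or process IGFs had 6 of 12 genes measured, with a median of 0.30. Of these, 0 were past 2-fold, beside 7.37% of all measured genes towards J3T-2 and 3.5% towards J3T-1. PAPPA, the protease of IGFBP4, read 1.3 and 11.4, and its relative PAPPA2 9.0 and 12.7, all under the floor. The PAPPA inhibitor gene STC1 read 41.6 in J3T-1 against 18.4 in J3T-2, under the floor in the latter, a difference of at least 1.89-fold towards J3T-1. The membrane protease gene ADAM9 was 1.85-fold higher in J3T-2 (328.8 and 609.7), and 2.22-fold in a second probe set (199.2 and 442.3). The secreted serine protease gene HTRA1 had a log2 ratio of 0.51 (2402.0 and 3414.1).

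Among regulators of the IGF2 transcript, 3 of 10 genes were measured, with a median of 0.10. The chromatin protein gene HMGA1 was 2.35-fold higher in J3T-1 (1583.7 and 674.5). The RNA-binding protein gene IGF2BP2 had a log2 ratio of 0.49, and both IGF2BP1 and IGF2BP3 were under the floor on both arrays. The mannose 6-phosphate genes, which share the lysosomal sorting route of IGF2R, had 3 of 4 measured and a median of -0.17. Of these, 0 were past 2-fold, beside 7.37% of all measured genes towards J3T-2 and 3.5% towards J3T-1. M6PR, the cation-dependent receptor of the same route, read 786.6 in J3T-1 against 638.1 in J3T-2 by its brighter probe set, a log2 ratio of -0.30 beside -1.11 for IGF2R. GNPTG, a subunit of the enzyme that adds the mannose 6-phosphate tag, had a log2 ratio of -0.17, with 1 of its 5 probe sets the other way past 2-fold (37.8 and 78.4).

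Surface partners of the binding proteins had 7 of 8 genes measured and a median of -0.59, with 2 past 2-fold towards J3T-1 (3.5% of all measured genes) and 1 towards J3T-2 (7.37%). The integrin subunit gene ITGA5, whose product pairs with that of ITGB1 and is a known partner of IGFBP2, was 4.11-fold higher in J3T-1 (570.4 and 138.7). By its other probe set it was 2.31-fold higher in J3T-1 (207.3 and 89.6). That direction is opposite to IGFBP2. LRP1, an endocytic receptor that binds IGFBP3, read 51.1 in J3T-1 against 15.1, under the floor, in J3T-2, a difference of at least 2.32-fold. Another LRP1 probe set read 36.2 against 20.2, also under the floor in J3T-2, or at least 1.65-fold. Its remaining probe sets were under both floors (11.6 and 14.0, and 18.0 and 7.8). ITGB3 was 6.52-fold higher in J3T-2 (68.4 and 445.9).

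Other secreted proteins that carry an IGFBP domain had 7 of 14 genes measured and a median of -0.46, with 2 past 2-fold towards J3T-1 (3.5% of all measured genes) and 1 towards J3T-2 (7.37%). The endocan gene ESM1 read 2090.8 in J3T-1 against 55.4 in J3T-2 (37.7-fold). The matricellular gene CCN2 was 4.94-fold higher in J3T-1 (3198.9 and 647.5) and 9.34-fold by its other probe set (1149.4 and 123.1). KAZALD1 read 1.5, under the floor, in J3T-1 against 84.3 in J3T-2, a difference of at least 4.44-fold. IGFBP1, the liver-derived binding protein, had 5 probe sets, all under the floor on both arrays.

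**Figure D4:**
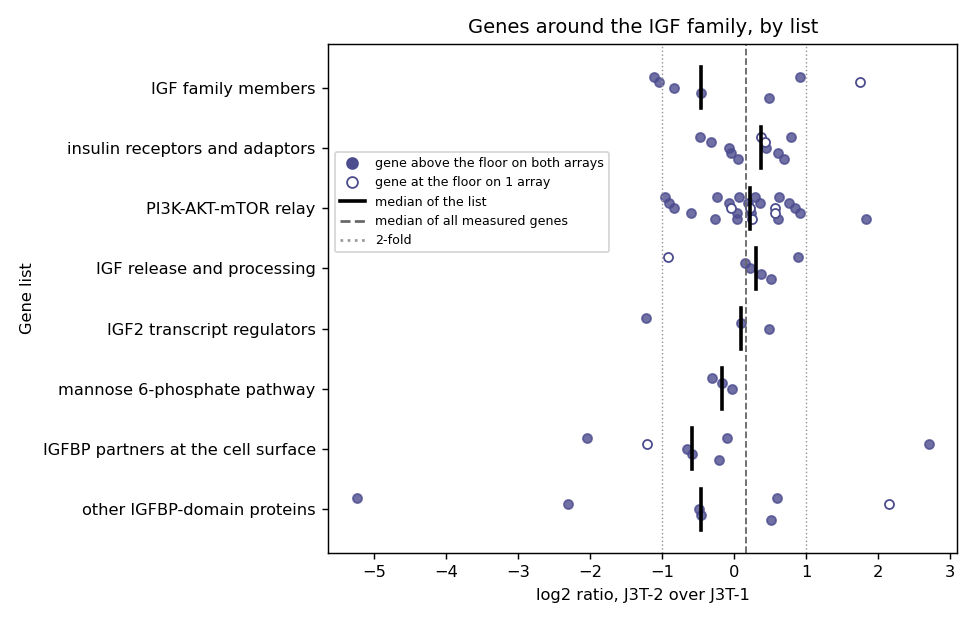
Log2 ratio of J3T-2 over J3T-1 for the measured genes of the family and of the 7 lists around it (filled where above both floors, open where at the floor on 1 array), with list medians as bars, the median of all measured genes dashed and 2-fold dotted. The adaptor and PI3K-AKT-mTOR lists lie mostly between the 2-fold lines, and the IGFBP-domain list reaches from -5.24 (ESM1) to 2.15 (KAZALD1).

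The glioma label was checked with cell type markers. Of 10 glial and progenitor markers on the array, 6 exceeded the floor for J3T-1 and 7 for J3T-2, and VIM, SOX2, NES and SLC1A3 exceeded it in both. Their summed signals were 9457 and 11836, most of it VIM (8129.9 and 7960.8, a log2 ratio of -0.03). Of the 7 measured, 4 were past 2-fold towards J3T-2, beside 7.37% of all measured genes. These were SLC1A3 (3.11-fold), FABP7 (at least 4.51-fold), SOX2 (2.9-fold) and PDGFRA (2.26-fold). The list median log2 ratio was 1.18, beside 0.17 over all measured genes. NES had a log2 ratio of 0.33, and ALDH1L1 went the other way at -0.27 (27.6 and 22.9). The astrocyte markers GFAP, AQP4 and S100B were under the floor on both arrays. Microglia and leukocyte markers had 1 of 6 above the floor in each subclone (summed signals 38 and 56) and endothelial markers 2 of 6 (80 and 72), while PTPRC, PECAM1 and KDR were under it. Fibroblast and pericyte markers had 4 of 7 above the floor in each (7624 and 8967), with PDGFRB, RGS5 and CSPG4 under it. Of the 4 measured, 1 was past 2-fold towards J3T-2, beside 7.37% of all measured genes, and 0 towards J3T-1, beside 3.5%. COL1A1 was 8.12-fold higher in J3T-2. COL1A2 was 1.71-fold higher in J3T-2 by its brightest probe set (3356.0 and 5736.0) and 3.43-fold to 4.42-fold by the others. DCN had a log2 ratio of 0.46, and LUM went the other way at -0.69 (4131.1 and 2559.1). Of the glial and fibroblast markers, SLC1A3, FABP7, SOX2, PDGFRA and COL1A1 were past 2-fold towards J3T-2, and ALDH1L1, VIM and LUM had log2 ratios below 0. Of the measured members, IGF1R, IGFBP2 and IGFBP7 were higher in J3T-2, and IGF2R, IGFBP4, IGFBP5 and IGFBP6 in J3T-1. Any part of cell state in those differences was not tested. In bulk RNA, fewer cells that make a transcript and less of it per cell cannot be told apart.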

How the data were processed

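RNA of J3T-1 and J3T-2 was labelled with biotin and hybridized to 1-colour canine arrays, 1 per subclone. The deposited values are signal intensities on a linear scale, made by the authors with MAS5, per the submitters' processing notes. The sources used here do not give its version, scaling target or detection calls. Of 43035 probe sets, 111 controls were left out. Only probe sets annotated with 1 gene symbol were used to name genes. Signals under the floor (each array's median) were set to it, since MAS5 values near background are noisy, and the log2 ratio of J3T-2 over J3T-1 was taken without further scaling. The probe set of highest mean log2 signal over both arrays stood for its gene. A fold against a floored signal is a lower bound, written "at least". With 1 array per subclone, a fold of at least 2 was counted in place of a test. The number of arrays limits the precision.

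The text names all members with every probe set and, of each pathway list, the genes at least 2-fold apart or else those with the largest log2 ratios. Others named to complete a count or a role were chosen after their values were seen. The members and lists were chosen with earlier results of these data known. Values were recomputed under 8 other settings. RefSeq's UU_Cfam_GSD_1.0 table served for names and neighbours only, and no sequence is shown. The 2-fold rule was run on simulated data with planted changes well past 2-fold or none, in bright genes and with little noise. That run does not bear on dim genes or on folds near 2. Tools were pandas 2.3.3 and numpy 2.4.6 under Python 3.11.15, with matplotlib 3.10.9 for figures and statsmodels 0.14.6 for loess.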

Additional observations from a re-analysis of the deposited data

How the results depend on the processing

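Of 53 log2 ratios of single members under other settings, 50 moved by less than 0.26, the SD between probe sets of a gene. Part of this was fixed in advance. Centring moved every ratio by the same 0.17, and other floors or probe set choices left many ratios identical. The count is therefore no measure of how reliable the ratios are. In every setting that gave the gene a value, IGF2R, IGFBP4, IGFBP5 and IGFBP6 stayed below 0. IGF1R, IGFBP2 and IGFBP7 likewise stayed above 0. For IGFBP5 this held for its representative probe set only. Its other probe sets passed 2-fold towards J3T-2 against a floor at the 25th percentile. IGF2R was not counted at the 75th percentile, where its floored signals gave no fold. The 3 ratios that moved by more than 0.26 included IGF1R without _x_at and _s_at probe sets (0.32 by the brighter probe set left, from 0.91). IGF1R against a floor at the 75th percentile (0.22) was among them too. The other was IGFBP2 with the floor at the 25th (3.49, from 1.75).

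Counts moved most with the floor. At the 75th percentile, 0 members passed 2-fold towards J3T-2 and 1 towards J3T-1, as did 0 and 1 of their probe sets. IGFBP2 and IGFBP5 were at the floor on both arrays there, and 1 pathway gene was higher in J3T-2. The family median was 0.016 over 5 members. That middle value was the ratio of IGF2R, whose floored signals gave no fold, so it reflects the floors and is not read as a family value. IGF1R (0.217) and IGFBP7 (0.479) lay above it, and IGFBP4 (-0.458) and IGFBP6 (-1.043) below. At the 25th percentile, 4 member probe sets were past 2-fold towards J3T-2. They included both IGFBP5 probe sets that lay under the main floors, which is opposite to the direction given for IGFBP5. The family median at that floor was 0.48, and 12 pathway genes lay past 2-fold towards J3T-2 and 9 towards J3T-1. With no floor and a pseudocount of 16, 0 members were higher in J3T-1, 1 probe set was in each direction, and the median was 0.17. Centred on the median, by quantile normalization and by loess (span 0.3), 1 member probe set was higher in J3T-2, and 8, 9 and 9 pathway genes were higher in J3T-1. Without _x_at and _s_at probe sets, 1 pathway gene was past 2-fold towards J3T-2 and 3 towards J3T-1. Shares over all genes were worked out only at the main floor, as deposited and centred on the median. Counts under the other settings therefore have no share beside them. No paired analysis was possible because each subclone has 1 array. Signal over background limits IGF1, IGF2 and the probe set annotated to IGFBP3.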
